A study of Mus musculus with 12 samples.

Results

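Receptor chains for IL-6, IL-12, IL-10, interferon gamma and TGF-beta were followed on 12 Affymetrix Mouse430_2 arrays of CD4+ CD25hi spleen T cells. They comprised 17 probe sets of 8 genes, out of 45101 probe sets on the array, and were taken as a list of named probe sets. No threshold on their values defined the list, but it was chosen with earlier results of these data known. Il6st and Tgfbr1 had 4 probe sets each, Tgfbr2 had 3, Ifngr2 had 2, and Il6ra, Il12rb1, Il10ra and Ifngr1 had 1 each. Probe sets of 1 gene share a transcript source and are not independent of each other.

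Treg cells, the suppressive CD4+ T cells, came fresh from spleen, after depletion of CD8+ and B cells and enrichment for CD25, the IL-2 receptor alpha chain. Effector T cells were sorted for the same surface markers after spleen cells had been kept for 48 hours in culture with anti-CD3, which stimulates T cells through their antigen receptor. Mice of 2 kinds gave both populations, C57BL/6 mice and C57BL/6-2Rbeta-WT/thymus transgenics on an IL-2Rbeta-deficient background, with 3 arrays per group. The labels name the thymus in the transgene, and the promoter that drives it was not stated in the sources read. C57BL/6 effector cells came from mice aged 10, 14 and 14 weeks, and transgenic effector cells from mice aged 15, 14 and 9 weeks, with 1 mouse per array. C57BL/6 Treg arrays held pools of 8, 8 and 15 mice, aged 12, 12 and 10 weeks. Transgenic Treg arrays held pools of 4, 8 and 3 mice, aged 33, 13 and 7 to 16 weeks. The labels call the arrays of a group separate biological replicates. Purity after sorting was 99.0% to 99.9% where the labels gave it. The population comparison is also a comparison of fresh with cultured cells, and of pools with single mice. The provider codes of the arrays likewise fell in separate ranges for Treg and effector cells. These differences cannot be told apart.

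Each of these receptors pairs a chain that binds the cytokine with a partner chain. Il6ra binds IL-6, and Il6st encodes gp130, the signalling chain shared by the IL-6 family. Il12rb1 is the chain shared by the IL-12 and IL-23 receptors, and Il10ra binds IL-10. Ifngr1 binds interferon gamma and Ifngr2 is the partner needed for its signal. Tgfbr2 binds TGF-beta and then phosphorylates Tgfbr1. In CD4+ T cells, TGF-beta can drive Foxp3 expression, IL-6 turns that response towards the Th17 fate, IL-12 and interferon gamma favour the Th1 fate, and Th1 cells are known to hold little Ifngr2.

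The RefSeq promoter table (GRCm38.p6) held 7 transcription starts for 6 of the 8 genes. Il12rb1 and Il10ra had no entry. The 250 bases before the start are printed 5′ to 3′ for 3 genes with large differences between populations, with every GGGCGG or its reverse complement in capitals. Of these genes, Ifngr2 and Tgfbr2 had 1 probe set each, 1423557_AT and 1443115_AT, with a like pattern over the arrays. The other probe sets of these genes are not covered by that likeness. The windows are Il6st at chr13:112463820-112464069 on the plus strand, Ifngr2 at chr16:91546809-91547058 on the plus strand and Tgfbr2 at chr9:116175364-116175613 on the minus strand.
Il6st: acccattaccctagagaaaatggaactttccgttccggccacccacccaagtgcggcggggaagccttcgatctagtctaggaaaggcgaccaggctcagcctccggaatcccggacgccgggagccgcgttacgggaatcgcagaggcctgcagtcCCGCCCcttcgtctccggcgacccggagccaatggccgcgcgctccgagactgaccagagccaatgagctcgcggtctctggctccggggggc
Ifngr2: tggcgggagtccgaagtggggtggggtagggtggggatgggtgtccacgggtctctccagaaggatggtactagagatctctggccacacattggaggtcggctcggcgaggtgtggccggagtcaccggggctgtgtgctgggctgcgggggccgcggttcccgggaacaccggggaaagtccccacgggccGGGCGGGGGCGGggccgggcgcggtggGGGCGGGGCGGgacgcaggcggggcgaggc
Tgfbr2: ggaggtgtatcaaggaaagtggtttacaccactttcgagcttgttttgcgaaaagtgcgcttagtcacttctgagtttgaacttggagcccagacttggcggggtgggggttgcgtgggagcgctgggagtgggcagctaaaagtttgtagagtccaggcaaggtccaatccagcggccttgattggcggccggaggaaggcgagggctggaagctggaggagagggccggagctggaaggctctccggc
The search covered 4 motifs on both strands, and no match of one overlapped a match of another. The GC box GGGCGG was found in 4 of the 7 windows, against 32.7% of the 32851 windows in the table. Ifngr2 held 4 copies, of which a pair share a base, Il6st held 1 and Tgfbr2 held 0. The STAT core TTCNNNGAA (7.02% of all windows), the IRF motif, which is GAAA and GAAA with NN between them (2.98%), and the ETS motif CCGGAAG (6.91%) were in 0 of the 7. GC content was 66% for Il6st, 74% for Ifngr2 and 58.4% for Tgfbr2, and the median over all windows was 52.4%. CpG dinucleotides numbered 26, 25 and 12, against a median of 6. These matches are descriptions of the letters in the windows.

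Values are log2 GCRMA as deposited, and changes are differences of group means on that scale, with the standard error of the fit. Of the 17 probe sets, 14 reached log2 5 on at least 3 arrays and were tested with limma among 18271 such probe sets, and "called" means a Benjamini-Hochberg adjusted p below 0.05 over all of them. Il6st 1421239_AT and Tgfbr1 1420894_AT passed that filter only through the Treg arrays, so they had to be higher there, and they are described by level and left out of the population counts. Ifngr2 1423558_AT, Tgfbr1 1420893_A_AT and Tgfbr1 1446041_AT did not pass it. Their values ran from 3.08 to 3.44, from 2.10 to 5.16 and from 2.37 to 2.73 across the 12 arrays. In these bulk samples fewer cells of a type and less RNA per cell cannot be told apart. Marker genes of other cell types and the targeted receptor gene were not analysed here, since the tables used name genes only for the receptors described and the control probe sets.

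Some arrays stood apart. The purification label of transgenic effector array 3 describes fresh spleen cells, against its title and source. On an axis set to 0% at the C57BL/6 effector mean and 100% at the C57BL/6 Treg mean, the 3 transgenic effector arrays lay at 5.80%, 8.77% and 12.7%, and array 3 was the farthest. The 3′ minus 5′ difference of the beta-actin control probe sets, a sign of RNA quality, was 0.80 on C57BL/6 effector array 2 and 0.82 on transgenic effector array 3, and 0.36 to 0.45 on the other 4 effector arrays. Across the Treg arrays it ran from 0.50 to 0.88. Array minima were 0.30 to 0.33 for effector cells and 0.94 to 0.96 for Treg cells, so levels set across populations may carry a difference of scale. Control probe sets for 18S ribosomal RNA read 3.20 to 3.54 in effector cells but 4.73 to 10.75 in Treg cells, so that reading moved with the population comparison, and its part in the receptor differences was not tested.

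Fresh Treg cells had more signal for most IL-6, interferon gamma and TGF-beta receptor probe sets than cultured effector cells, and less for Il12rb1. Of the 12 probe sets that reached log2 5 on at least 1 array of each population, 8 were higher in Treg cells and 2 were lower in C57BL/6 mice (limma adjusted p below 0.05). Of the 14969 tested probe sets that did so, 23.9% were higher and 44.6% lower, and of all tested probe sets 31.7% and 42.0%. Among the 8 higher in C57BL/6 mice, Tgfbr2 1443115_AT reached log2 5 in effector cells only on the transgenic arrays. In transgenic mice 9 of the 12 were higher and 1 was lower, against 21.8% and 42.1%, and 30.0% and 40.0% of all tested. The median change of the 12 was 2.02 in C57BL/6 mice and 1.61 in transgenic mice, and over the 14969 it was -0.406 and -0.346. Over all tested probe sets it was -0.257 and -0.211. Quantile normalization moved these last medians to -0.041 and 0.018. Relative to the median of all tested probe sets in C57BL/6 mice, the population change was -2.67 for Il12rb1, -0.56 for Il10ra and 0.73 for Ifngr1. Without transgenic effector array 3 the 9 higher probe sets stayed called in transgenic mice, and Il6ra was called too. Those not given with their gene below were then 2.45 for Il6st 1460295_S_AT, 1.18 for Ifngr1, 1.71 for Ifngr2 1423557_AT, and 1.78 and 2.07 for Tgfbr2 1426397_AT and 1443115_AT. Without C57BL/6 effector array 2 the 8 higher probe sets in C57BL/6 mice stayed called, at 1.09 for Il6ra to 3.65 for Il6st 1437303_AT.

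Between strains the picture was sparse. In Treg cells 0 of the 14 probe sets were called (limma), 0 had an unadjusted p below 0.05, and 1.19% of all tested probe sets were called. In effector cells 3 of 14 were called (limma), which were Il12rb1 and Il10ra, both lower in transgenic cells, and Ifngr2 1423557_AT, which was higher. The share called among all tested probe sets was 2.99%. The transgenic effector arrays did not overlap the C57BL/6 effector arrays for 6 of the 14, and for 22.8% of all tested probe sets. Calls made with array weights are to be read against a wider background, since the weights raised the share called among all tested probe sets to 16.6% in effector cells and 13.8% for the difference of strain changes. Il12rb1 and Ifngr2 1423557_AT also differed between populations in their strain change, 2 of 14 against 2.26% of all tested probe sets. The comparisons share arrays, and their values are given side by side.

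**Figure D1:**
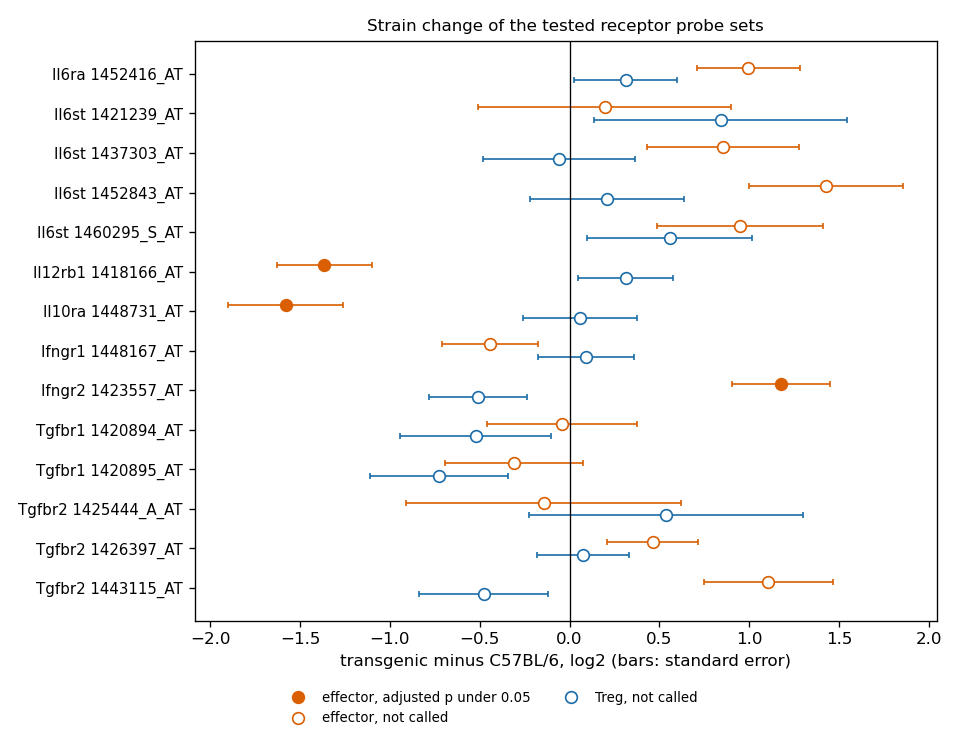
Change of each of the 14 tested probe sets in transgenic against C57BL/6 cells, in log2, with bars for the standard error of the limma fit, for Treg cells and for effector cells. Filled points are called at an adjusted p below 0.05, which holds for 0 in Treg cells and 3 in effector cells (Il12rb1 -1.36, Il10ra -1.58, Ifngr2 1423557_AT 1.18).

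Il6ra, the IL-6 binding chain, read 8.46, 8.22 and 8.28 on the C57BL/6 effector arrays (8.32 ± 0.13, SD, n = 3) and 8.81, 9.22 and 9.92 on the transgenic effector arrays (9.32 ± 0.56). The Treg arrays read 9.96, 9.15 and 9.26 in C57BL/6 (9.46 ± 0.44) and 10.02, 9.51 and 9.78 in transgenic mice (9.77 ± 0.25). The C57BL/6 effector arrays were the lowest of all 12, and the transgenic effector arrays overlapped the Treg arrays. The order of the group means was C57BL/6 effector, transgenic effector, C57BL/6 Treg and transgenic Treg, and the last 3 overlapped. In C57BL/6 mice Treg cells were higher than effector cells by 1.14 ± 0.29 (limma adjusted p = 0.00369, 2.20-fold). The difference in transgenic mice was 0.46 ± 0.29 (adjusted p = 0.175), and it was 0.76 without transgenic effector array 3 (adjusted p = 0.0219). Quantile normalization also gave a call, at 0.99 (adjusted p = 0.0138). The strain change in effector cells was 1.00 ± 0.29 with no overlap, and it missed the threshold (limma adjusted p = 0.103). Without transgenic effector array 3 it was 0.69 (adjusted p = 0.232), and with array weights 0.74 (adjusted p = 0.0218). In Treg cells the strain change was 0.31 ± 0.29 (adjusted p = 0.87).

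Il6st, which encodes gp130, was higher in Treg cells in both strains with each of the 3 probe sets that also reached log2 5 in effector cells. The probe set 1452843_AT read 8.11, 7.48 and 7.81 in C57BL/6 effector cells (7.80 ± 0.31, SD, n = 3) and 8.64, 8.51 and 10.53 in transgenic effector cells (9.23 ± 1.13). It read 11.03, 10.89 and 11.08 in C57BL/6 Treg cells (11.00 ± 0.09) and 11.27, 10.97 and 11.40 in transgenic Treg cells (11.21 ± 0.22). All 6 Treg arrays were above all 6 effector arrays, and transgenic effector array 3 was the nearest to them. The C57BL/6 Treg cells were higher by 3.20 ± 0.43 (limma adjusted p = 3.61e-05, 9.20-fold). In transgenic mice the difference was 1.98 ± 0.43 (adjusted p = 0.00146, 3.95-fold), and 2.63 without transgenic effector array 3 (adjusted p = 1.09e-06).

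The other Il6st probe sets also had all Treg arrays above all effector arrays. For 1437303_AT the effector arrays ran from 5.01 to 7.19 and the Treg arrays from 8.81 to 9.85, and the differences were 3.84 ± 0.43 in C57BL/6 and 2.93 ± 0.43 in transgenic mice (limma adjusted p = 8.09e-06 and 7.99e-05). The latter was 3.41 without transgenic effector array 3. For 1460295_S_AT the effector arrays ran from 5.31 to 7.28 and the Treg arrays from 8.25 to 10.22, and the population change was 3.02 ± 0.46 in C57BL/6 and 2.63 ± 0.46 in transgenic mice (adjusted p = 0.000104 and 0.000335). The low probe set 1421239_AT read 2.74 to 3.49 in effector cells, under the filter level, 5.19, 7.35 and 8.80 on the C57BL/6 Treg arrays and 7.82, 7.36 and 8.68 on the transgenic Treg arrays. The 4 probe sets did not move as a unit within groups: transgenic effector array 3 was the highest of its group for 1437303_AT (7.19) and 1452843_AT (10.53) and the lowest for 1421239_AT (2.75) and 1460295_S_AT (6.69).

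The strain changes of Il6st were not called. In effector cells they were 0.85 ± 0.43, 1.43 ± 0.43 and 0.95 ± 0.46 for 1437303_AT, 1452843_AT and 1460295_S_AT (limma adjusted p = 0.375, 0.118 and 0.362). For 1452843_AT the groups did not overlap, and the value without transgenic effector array 3 was 0.78 (adjusted p = 0.0729). For 1437303_AT it was 0.38 without that array (adjusted p = 0.771), and for 1460295_S_AT 1.13 (adjusted p = 0.371). Array weights gave a call for 1460295_S_AT, at 1.07 (adjusted p = 0.0391). In Treg cells the 4 strain changes ran from -0.06 to 0.84 (adjusted p from 0.847 to 0.997).

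**Figure D2:**
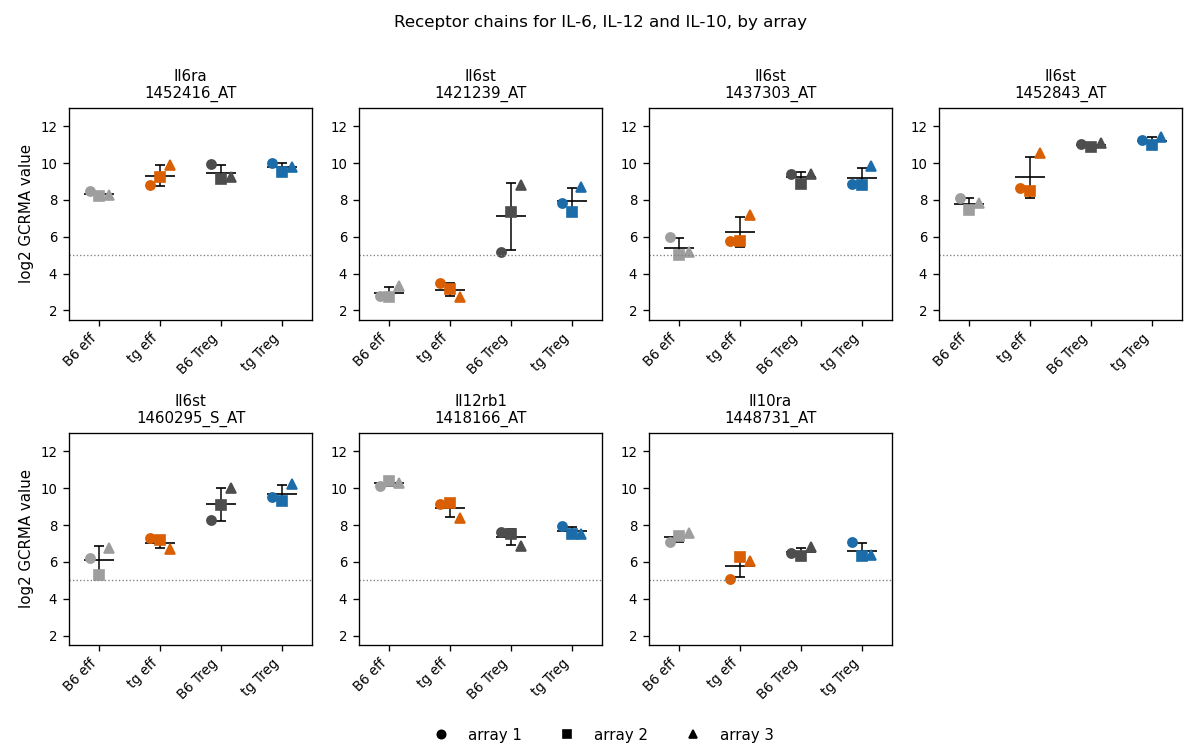
Log2 GCRMA value on each array for the Il6ra, Il6st, Il12rb1 and Il10ra probe sets in the 4 groups of 3 arrays (B6, C57BL/6; tg, transgenic; eff, effector), with bars for the group mean ± SD and a dotted line at log2 5. Circles, squares and triangles mark arrays 1, 2 and 3. The Treg arrays sit above the effector arrays for each Il6st probe set, of which 1421239_AT is under log2 5 on all effector arrays, and Il12rb1 is highest in C57BL/6 effector cells (10.28 ± 0.14).

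Il12rb1, shared by the IL-12 and IL-23 receptors, was the only 1 of the 8 genes with a called fall from effector to Treg cells in both strains. It read 10.13, 10.42 and 10.28 in C57BL/6 effector cells (10.28 ± 0.14, SD, n = 3) and 9.14, 9.22 and 8.37 in transgenic effector cells (8.91 ± 0.47). The Treg arrays read 7.65, 7.52 and 6.86 in C57BL/6 mice (7.34 ± 0.42) and 7.93, 7.52 and 7.52 in transgenic mice (7.66 ± 0.23). The C57BL/6 effector arrays were above the transgenic effector arrays, which were above all Treg arrays, and the Treg groups overlapped. Treg cells were lower by 2.93 ± 0.26 in C57BL/6 mice (limma adjusted p = 1.5e-06, 7.63-fold) and by 1.25 ± 0.26 in transgenic mice (adjusted p = 0.00125, 2.38-fold). Without transgenic effector array 3 the latter change was -1.52.

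In effector cells Il12rb1 was lower in transgenic mice, with a change of -1.36 ± 0.26 (limma adjusted p = 0.0176, 2.58-fold, lower on 3 of 3 arrays). The change was -1.44 without C57BL/6 effector array 1 (adjusted p = 0.053) and -1.29 without C57BL/6 effector array 2 (adjusted p = 0.0881), and it was called without each of the other 4. It was -1.10 without transgenic effector array 3 (adjusted p = 0.0398). With the 6 effector arrays fitted alone the adjusted p was 0.0757. In Treg cells the change was 0.31 ± 0.26 (adjusted p = 0.852). The strain changes differed by 1.68 ± 0.37, Treg minus effector (adjusted p = 0.0431). That call held without C57BL/6 Treg array 1 (1.83, adjusted p = 0.0387) and was lost without any other single array, with values from 1.41 to 1.83 and adjusted p from 0.0514 to 0.12.

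Il10ra, the IL-10 binding chain, read 7.09, 7.40 and 7.59 in C57BL/6 effector cells (7.36 ± 0.25, SD, n = 3) and 5.07, 6.25 and 6.03 in transgenic effector cells (5.78 ± 0.63). It read 6.49, 6.34 and 6.79 in C57BL/6 Treg cells (6.54 ± 0.23) and 7.10, 6.30 and 6.40 in transgenic Treg cells (6.60 ± 0.44). The transgenic effector arrays were the lowest 3 of the 12, and the Treg groups overlapped. The C57BL/6 effector group was the highest by mean, and its array 1 (7.09) lay just under transgenic Treg array 1 (7.10).

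The strain change of Il10ra in effector cells was -1.58 ± 0.32 (limma adjusted p = 0.0214, 2.99-fold, lower on 3 of 3 arrays). The call was lost without C57BL/6 effector array 1 (-1.71, adjusted p = 0.05), array 2 (-1.56, adjusted p = 0.0918) or array 3 (-1.47, adjusted p = 0.0658), and held without transgenic effector array 3 (-1.70, adjusted p = 0.0347). It was also lost with quantile normalization (-1.37, adjusted p = 0.0504), without the filter (adjusted p = 0.0551) and with the 6 effector arrays alone (adjusted p = 0.108). In Treg cells the change was 0.06 ± 0.32 (adjusted p = 0.992). The strain changes differed by 1.64 ± 0.45, which was not called (adjusted p = 0.102), and 1.53 with array weights, which was (adjusted p = 0.0244).

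Between populations Il10ra went opposite ways in the strains. In C57BL/6 mice it was lower in Treg cells by 0.82 ± 0.32 (limma adjusted p = 0.0354, 1.77-fold). In transgenic mice it was higher in Treg cells by 0.82 ± 0.32 (adjusted p = 0.0381, 1.76-fold). The C57BL/6 call was lost without C57BL/6 effector array 2 (-0.80, adjusted p = 0.0796) or 3 (-0.71, adjusted p = 0.107), or without C57BL/6 Treg array 1 (-0.80, adjusted p = 0.0723) or 2 (-0.72, adjusted p = 0.105). The transgenic call was lost without transgenic effector array 1 (0.46, adjusted p = 0.167) or transgenic Treg array 1 (0.57, adjusted p = 0.153), and with quantile normalization (0.56, adjusted p = 0.136), array weights (0.67, adjusted p = 0.0666) or the 6 transgenic arrays alone (adjusted p = 0.0847). Without transgenic effector array 3 it was 0.94 (adjusted p = 0.0369). The difference between these population changes is the same contrast as the difference of strain changes, 1.64 with an adjusted p of 0.102.

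Ifngr1, the interferon gamma binding chain, stayed between 9.39 and 10.98 on the 12 arrays. It read 10.05, 9.57 and 10.52 in C57BL/6 effector cells (10.04 ± 0.48, SD, n = 3), 9.39, 9.45 and 9.96 in transgenic effector cells (9.60 ± 0.31), 10.19, 10.37 and 10.98 in C57BL/6 Treg cells (10.51 ± 0.42) and 10.72, 10.63 and 10.46 in transgenic Treg cells (10.60 ± 0.13). Neighbouring groups in the order of means overlapped. Treg cells were higher by 1.00 ± 0.27 in transgenic mice (limma adjusted p = 0.00577, 2.00-fold). In C57BL/6 mice the difference was 0.47 ± 0.27 (adjusted p = 0.133), and it was called without C57BL/6 effector array 3 (0.71, adjusted p = 0.0354) and with quantile normalization (1.09, adjusted p = 0.00287). The strain changes were 0.09 ± 0.27 in Treg cells and -0.44 ± 0.27 in effector cells (adjusted p = 0.977 and 0.494). The effector value was -0.62 without transgenic effector array 3 (adjusted p = 0.358).

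Ifngr2, the partner chain of Ifngr1, was the tested member with the smallest adjusted p between populations in C57BL/6 mice. Its probe set 1423557_AT read 5.05, 4.75 and 5.20 in C57BL/6 effector cells (5.0 ± 0.23, SD, n = 3) and 5.98, 6.49 and 6.07 in transgenic effector cells (6.18 ± 0.27). It read 8.10, 8.16 and 9.10 in C57BL/6 Treg cells (8.45 ± 0.56) and 7.75, 7.99 and 8.09 in transgenic Treg cells (7.94 ± 0.17). The 4 groups did not overlap: C57BL/6 effector was lowest, then transgenic effector, transgenic Treg and C57BL/6 Treg, with 8.09 and 8.10 as the closest arrays of the last pair. Treg cells were higher by 3.45 ± 0.27 in C57BL/6 mice (limma adjusted p = 5.24e-07, 10.9-fold) and by 1.76 ± 0.27 in transgenic mice (adjusted p = 0.000129, 3.39-fold). The other Ifngr2 probe set, 1423558_AT, stayed between 3.08 and 3.44 on all 12 arrays, under the filter level, and was not tested. It did not have this order of groups, and its transgenic Treg arrays read below its transgenic effector arrays.

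In effector cells Ifngr2 1423557_AT was higher in transgenic mice by 1.18 ± 0.27 (limma adjusted p = 0.042, 2.26-fold, higher on 3 of 3 arrays). The call did not survive the loss of any 1 effector array. The change was 1.20, 1.05 and 1.28 without C57BL/6 effector array 1, 2 or 3 (adjusted p = 0.135, 0.185 and 0.0594). It was 1.28, 1.02 and 1.24 without transgenic effector array 1, 2 or 3 (adjusted p = 0.0625, 0.15 and 0.0726). Quantile normalization gave 0.97 (adjusted p = 0.101), and the call was also lost with median centring (1.20, adjusted p = 0.0553). It was lost too without the filter (adjusted p = 0.103) and with the 6 effector arrays alone (adjusted p = 0.0643). Of 15 alternatives 4 kept the call. The Treg change was -0.51 ± 0.27 (adjusted p = 0.664), and it was -0.19 without C57BL/6 Treg array 3. The strain changes differed by -1.69 ± 0.38 (adjusted p = 0.048). That call held without C57BL/6 Treg array 1 or 3 (-1.86 and -1.36, adjusted p = 0.0375 and 0.0391) and was lost without any of the other 10 arrays, with values from -1.83 to -1.53 and adjusted p from 0.0624 to 0.135.

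**Figure D3:**
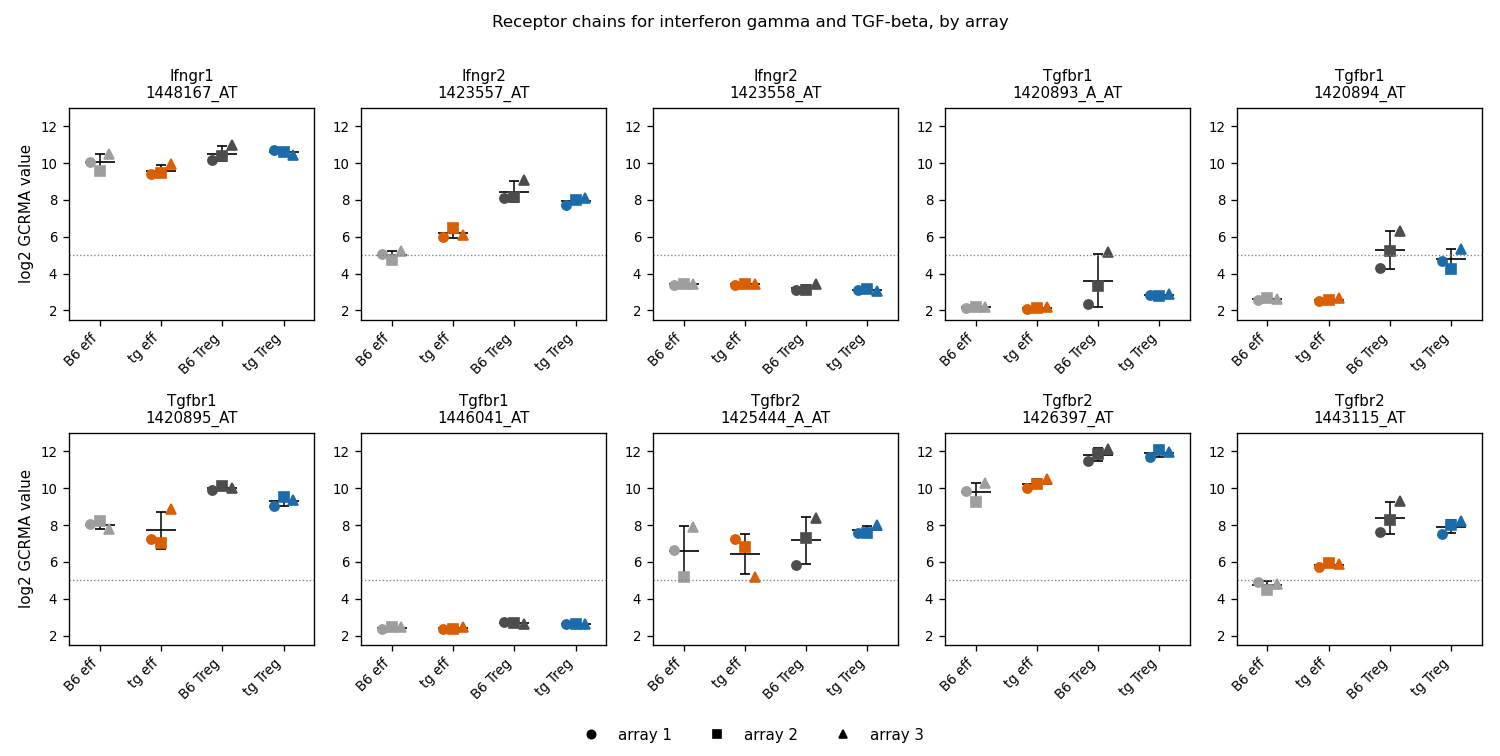
Log2 GCRMA value on each array for the Ifngr1, Ifngr2, Tgfbr1 and Tgfbr2 probe sets in the 4 groups of 3 arrays (B6, C57BL/6; tg, transgenic; eff, effector), with bars for the group mean ± SD and a dotted line at log2 5. Circles, squares and triangles mark arrays 1, 2 and 3. The 4 groups are apart for Ifngr2 1423557_AT, while 1423558_AT stays between 3.08 and 3.44.

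Tgfbr1, the TGF-beta receptor kinase that Tgfbr2 activates, read above log2 7 on every array with 1 of its 4 probe sets. That probe set, 1420895_AT, read 8.07, 8.21 and 7.77 in C57BL/6 effector cells (8.02 ± 0.22, SD, n = 3) and 7.22, 7.04 and 8.86 in transgenic effector cells (7.71 ± 1.00). It read 9.88, 10.12 and 10.02 in C57BL/6 Treg cells (10.01 ± 0.12) and 9.01, 9.50 and 9.34 in transgenic Treg cells (9.28 ± 0.25). The C57BL/6 Treg arrays were the highest 3 and the transgenic Treg arrays the next 3, and the effector groups overlapped. Treg cells were higher by 1.99 ± 0.38 in C57BL/6 mice (limma adjusted p = 0.000622, 3.98-fold) and by 1.58 ± 0.38 in transgenic mice (adjusted p = 0.00331, 2.98-fold). Without transgenic effector array 3 the transgenic difference was 2.15 (adjusted p = 3.63e-06).

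The strain change of Tgfbr1 1420895_AT in Treg cells was -0.73 ± 0.38, with a limma adjusted p of 0.653, the lowest of the 14 in that comparison. In effector cells it was -0.31 ± 0.38 (adjusted p = 0.819). Transgenic effector arrays 1 and 2 lay below all C57BL/6 effector arrays and array 3 above them, and without array 3 the change was -0.89 and was called (adjusted p = 0.0365). Array weights, which gave array 3 the lowest weight of the 12, also gave a call, at -0.83 (adjusted p = 0.0192). The weaker probe set 1420894_AT read 2.52 to 2.65 in effector cells and 4.27 to 6.34 in Treg cells. The untested 1420893_A_AT passed log2 5 on a single array, C57BL/6 Treg array 3 (5.16), and 1446041_AT stayed at or under 2.73 on every array.

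Tgfbr2, the TGF-beta binding chain, was followed by 3 tested probe sets, and 2 of them were higher in Treg cells in both strains. The probe set 1426397_AT read 9.85, 9.26 and 10.26 in C57BL/6 effector cells (9.79 ± 0.50, SD, n = 3) and 10.03, 10.22 and 10.51 in transgenic effector cells (10.25 ± 0.24). It read 11.48, 11.84 and 12.16 in C57BL/6 Treg cells (11.83 ± 0.34) and 11.68, 12.09 and 11.95 in transgenic Treg cells (11.91 ± 0.21). Treg arrays were above effector arrays in both strains, and the strains overlapped within each population. The excess in Treg cells was 2.04 ± 0.25 in C57BL/6 mice (limma adjusted p = 2.14e-05, 4.11-fold) and 1.65 ± 0.25 in transgenic mice (adjusted p = 0.000128, 3.14-fold). With quantile normalization these were 2.67 and 2.28. The strain changes were 0.08 ± 0.25 in Treg cells and 0.46 ± 0.25 in effector cells (adjusted p = 0.98 and 0.434), and the effector value was 0.34 without transgenic effector array 3 (adjusted p = 0.712).

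The probe set Tgfbr2 1443115_AT did not overlap between strains in effector cells, where all C57BL/6 values were under log2 5 and the change was not called. It read 4.93, 4.49 and 4.80 in C57BL/6 effector cells (4.74 ± 0.23, SD, n = 3) and 5.73, 5.96 and 5.86 in transgenic effector cells (5.85 ± 0.12). It read 7.61, 8.27 and 9.31 in C57BL/6 Treg cells (8.40 ± 0.86) and 7.53, 8.01 and 8.20 in transgenic Treg cells (7.92 ± 0.35). The transgenic effector arrays were above the C57BL/6 effector arrays with no overlap, and the Treg groups overlapped. Treg cells were higher by 3.65 ± 0.36 and 2.07 ± 0.36 in C57BL/6 and transgenic mice (limma adjusted p = 3e-06 and 0.000305). The effector strain change of 1.11 ± 0.36 was not called (adjusted p = 0.148), and was called with the 6 effector arrays alone (adjusted p = 0.0411) and with array weights (1.05, adjusted p = 0.0065). Without transgenic effector array 3 it was 1.10 (adjusted p = 0.246).

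The Treg strain change of Tgfbr2 1443115_AT was -0.48 ± 0.36 (limma adjusted p = 0.811), and it was -0.02 without C57BL/6 Treg array 3 and -0.87 without C57BL/6 Treg array 1. The strain changes differed by -1.59 ± 0.51, which was not called (adjusted p = 0.172). The replicate block in Treg cells alone gave a call at the same value (adjusted p = 0.0323). Leaving out C57BL/6 Treg array 1 gave -1.98 (adjusted p = 0.0385), array weights -1.31 (adjusted p = 0.0167), and a covariate for the spiked controls on the Treg arrays -2.32 (adjusted p = 0.0101).

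**Figure D4:**
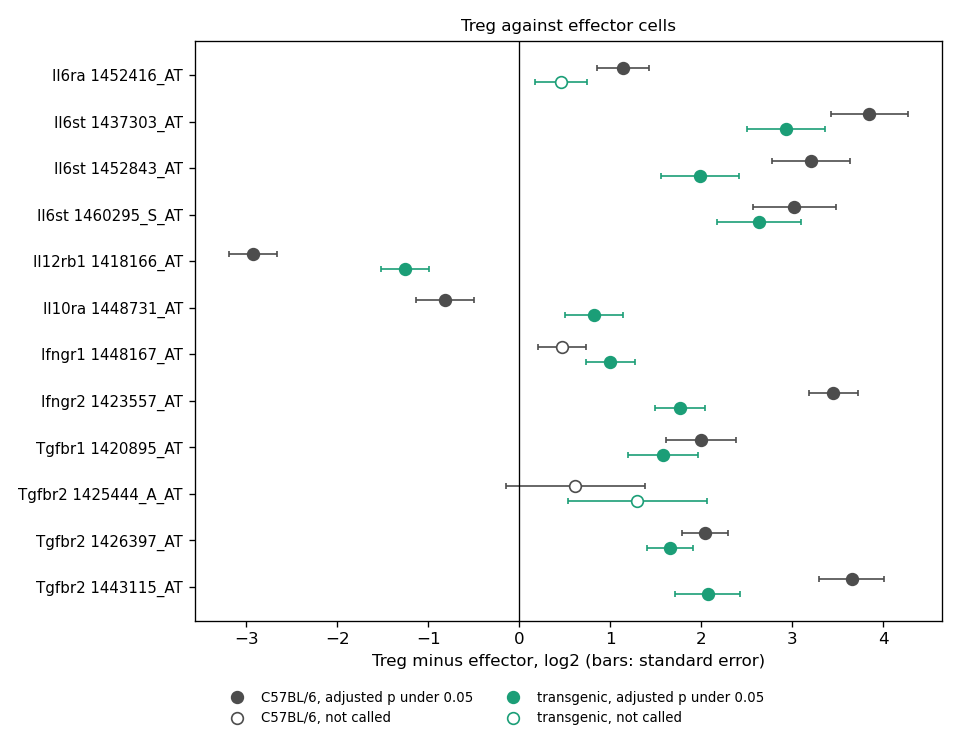
Treg minus effector change of the 12 tested probe sets that reached log2 5 in both populations, in log2, with bars for the standard error of the limma fit, in C57BL/6 and in transgenic mice. Filled points are called at an adjusted p below 0.05. Il12rb1 is below 0 in both strains (-2.93 and -1.25), and Il10ra lies at -0.82 in C57BL/6 and 0.82 in transgenic mice.

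The third Tgfbr2 probe set, 1425444_A_AT, was spread widely within 3 of the 4 groups. It read 6.65, 5.16 and 7.89 in C57BL/6 effector cells (6.57 ± 1.37, SD, n = 3), 7.23, 6.83 and 5.20 in transgenic effector cells (6.42 ± 1.07), 5.84, 7.30 and 8.40 in C57BL/6 Treg cells (7.18 ± 1.28) and 7.59, 7.59 and 7.98 in transgenic Treg cells (7.72 ± 0.22). No comparison was called, and Treg minus effector was 0.61 ± 0.76 in C57BL/6 and 1.30 ± 0.76 in transgenic mice (limma adjusted p = 0.482 and 0.149). In C57BL/6 mice the difference became -0.09 on dropping effector array 2, 1.28 on dropping Treg array 1 and 0.01 on dropping Treg array 3.

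Its within-group spread moved with the beta-actin 3′ minus 5′ difference. The effector arrays with the largest difference, C57BL/6 array 2 (0.80) and transgenic array 3 (0.82), had its lowest values, 5.16 and 5.20, against 6.65 to 7.89 on the other 4. On the C57BL/6 Treg arrays differences of 0.88, 0.80 and 0.56 went with values of 5.84, 7.30 and 8.40. Il6st 1460295_S_AT followed the same order on the C57BL/6 Treg arrays (8.25, 9.10 and 10.02) and was lowest on the same effector array of each strain (5.31 and 6.69). For Tgfbr2 1426397_AT the 3 C57BL/6 Treg values kept that order (11.48, 11.84 and 12.16), but transgenic effector array 3 was the highest of its group (10.51). The part of RNA quality in these values was not tested.

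**Figure D5:**
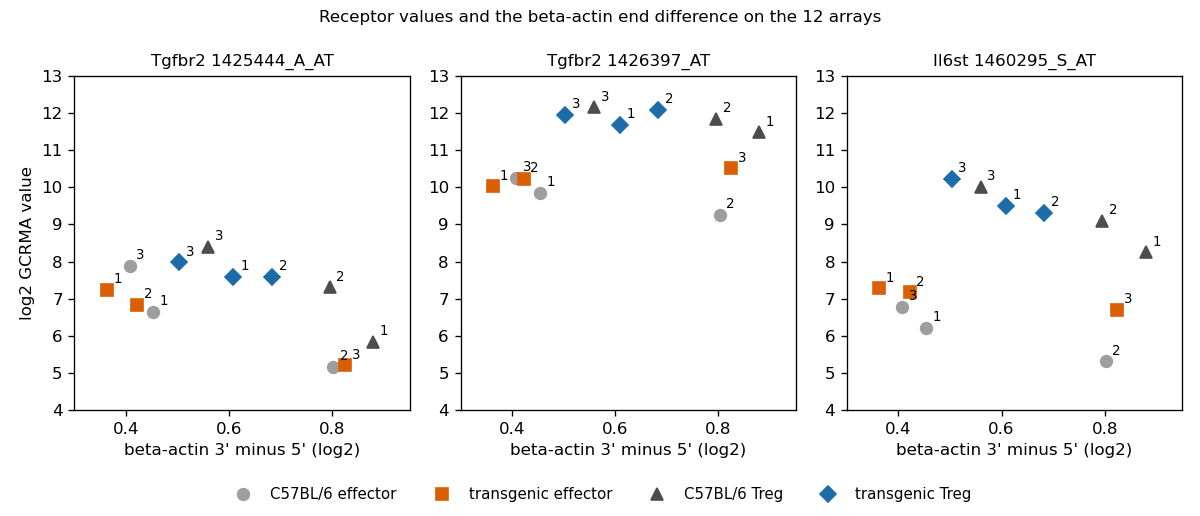
Log2 GCRMA value of Tgfbr2 1425444_A_AT, Tgfbr2 1426397_AT and Il6st 1460295_S_AT on the 12 arrays against the 3′ minus 5′ difference of the beta-actin control probe sets, in log2. Colours and shapes mark the 4 groups and numbers the array within the group. The effector arrays at 0.80 and 0.82 have the lowest effector values of 1425444_A_AT (5.16 and 5.20).

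Readings other than the receptors also separated the C57BL/6 Treg arrays. Array 1 was the lowest and array 3 the highest of that group for Ifngr1, Ifngr2 1423557_AT, Tgfbr1 1420893_A_AT and 1420894_AT, Il6st 1421239_AT and 1460295_S_AT, and all 3 Tgfbr2 probe sets. The mean of the 18S control probe sets on these arrays was 10.75, 8.22 and 4.73, and the mean of the spiked bacterial controls was 12.65, 11.63 and 10.50. On the transgenic Treg arrays the same readings ran from 6.52 to 7.33 and from 10.50 to 10.79. Their part in the receptor values was not tested. In the Treg strain comparison the C57BL/6 group was the more widely spread for the probe sets lowest on array 1 and highest on array 3. The SD of Il6st 1421239_AT was 1.82 in C57BL/6 against 0.67 in transgenic Treg cells, and that of Tgfbr2 1425444_A_AT was 1.28 against 0.22.

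Likeness of pattern was measured as the root-mean-square difference of the 12 values after each probe set was centred on its own mean, over all tested probe sets of other genes. For Ifngr2 1423557_AT the nearest of all was Tgfbr2 1443115_AT (0.234). In both, C57BL/6 effector arrays were lowest, transgenic effector arrays next and Treg arrays highest, with C57BL/6 Treg array 3 on top (9.10 and 9.31). The nearest to Il12rb1 was 1426423_AT (0.249) and the nearest to Il10ra was 1421034_A_AT (0.291), neither of which is named by the tables used here. For the other 5 genes the smallest difference was between 0.170 and 0.299. Ranks of probe sets of the same gene were taken against 1 probe set per gene, the one with the highest mean. Against Il6st 1452843_AT, the probe set 1437303_AT ranked 104 among the tested probe sets, 1460295_S_AT ranked 1138 and 1421239_AT ranked 7299. Against Tgfbr2 1426397_AT, 1443115_AT ranked 3169 and 1425444_A_AT ranked 6139. All points share the 12 arrays and the difference between populations, so these values are descriptions.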

How the data were processed

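CD4+ CD25hi T cell RNA was measured on 12 Affymetrix arrays, 4 groups of 3, grouped by the labels' titles and sources. The deposited values are log2, made by the authors with GCRMA per the submitters' processing notes. Not given in the sources used here are its version and whether the populations were normalized jointly. The 64 control probe sets were left out, and probe sets at log2 5 or more on at least 3 arrays were tested. A model of 4 group means was run on the 12 arrays with limma 3.58.1 under R 4.3.3 (eBayes with trend), with Benjamini-Hochberg adjustment over 18271 probe sets. The fit was checked on simulated data. All 17 probe sets are named, plus the nearest probe sets by likeness. The members and lists were chosen with earlier results of these data known. Lists of related genes and cell markers were not analysed here, since no table paired them with probe sets. With 3 arrays per group the precision is limited. The p-values rest on 1 variance per probe set, estimated over all 4 groups and moderated by eBayes, and those groups mix pools with single mice. Alternatives covered normalization, filter, variance model, array weights, fewer arrays, blocks and each array left out. No 2 arrays held identical values. Deviations of same-numbered Treg arrays correlated at 0.58, 0.10 and 0.51, and such arrays were taken as paired from the data. Treg arrays of unlike number correlated at -0.54 to 0.11, so the arrays numbered 2 did not stand out. The main fit used no replicate block. Same-numbered effector arrays correlated at 0.21, -0.34 and -0.34 and were not taken as paired, and 2 of their description fields carry another number.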

Additional observations from a re-analysis of the deposited data

Results flagged for a closer look

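Il12rb1 1418166_AT and Ifngr2 1423557_AT are listed because their strain change differed between Treg and effector cells in the test of the difference itself. For Il12rb1 the Treg strain change exceeded the effector strain change by 1.68 ± 0.37 (limma adjusted p = 0.0431), from changes of 0.31 in Treg cells and -1.36 in effector cells. The adjusted p ran from 0.0387 to 0.12 when 1 array was left out, and 1 of those 12 fits kept the call. For Ifngr2 the difference was -1.69 ± 0.38 (limma adjusted p = 0.048), from changes of -0.51 and 1.18. Its adjusted p ran from 0.0375 to 0.135 when 1 array was left out, and 2 of those 12 fits kept the call.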

How the results depend on the processing

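The count of called probe sets was 0 in the Treg strain comparison under every alternative run. Over the 14 tested probe sets it was 12 in each population comparison and stayed within 1.5 times of that. This count includes the Il6st and Tgfbr1 probe sets that passed the filter only through the Treg arrays. Those had to be higher there, and they were called in every alternative that tested them. Without them the main fit called 8 higher and 2 lower of 12 in C57BL/6 mice, and 9 and 1 in transgenic mice. Among all 18271 tested probe sets it called 13475 in C57BL/6 and 12789 in transgenic mice. The effector strain count of 3 became 1 with quantile normalization, 1 without the filter and 1 with the 6 arrays alone. The 1 call with the 6 arrays alone was Tgfbr2 1443115_AT. Il12rb1, Il10ra and Ifngr2 1423557_AT all lost their calls there (limma adjusted p = 0.0757, 0.108 and 0.0643). Array weights gave a count of 7, with 16.6% of all tested probe sets called. Leaving out 1 array gave 0 to 3. The 3 without transgenic effector array 3 held Tgfbr1 1420895_AT in place of Ifngr2 1423557_AT. The count of 2 for the difference of strain changes became 0 with quantile normalization, 0 without the filter, 0 with consecutive provider codes as a block, 1 with median centring, 1 with the robust fit and 4 with array weights (13.8% of all tested), and 0 to 3 when 1 array was left out. Over 70 results, 1084 of 1194 alternative values kept their direction and side of the threshold, 32 uncalled values changed sign in 16 results, 61 lost a call and 17 gained one. No called value changed sign.

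With the replicate block the effector strain count was 2 and the count for the difference was 1. The block in Treg cells alone, where same-numbered arrays were taken as paired from the data, and the spike covariate were chosen after seeing the data. Each gave a count of 3 for the difference, and the Treg-only block changed no call other than Tgfbr2 1443115_AT. In effector cells same-numbered arrays were not taken as paired, and the block there took Ifngr2 1423557_AT to an adjusted p of 0.0628 (limma). Across populations it took Il10ra to 0.0807 in C57BL/6 and 0.0854 in transgenic mice. Probe sets under the filter level on more than 9 arrays were described by level alone.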
